A study of Homo sapiens with 18 samples.

Results

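The genes described here are those of interferon signalling and the interferon-stimulated genes. Among 55766 entries of the gene table, 49 genes of this pathway were followed. They were 12 receptors, kinases and transcription factors of the signalling pathway and 37 genes grouped as interferon-stimulated. The stimulated group includes MAVS, the mitochondrial adaptor of RNA sensing, which is listed with the RNA sensors. All 49 were present in the table, where they were found by symbol. The members and the further pathway genes were chosen with earlier results of these data known. Their counts beside shares over all genes are therefore description. A total of 33 members had enough counts to be tested, 11 signalling and 22 stimulated, and 16 did not. Interferons are secreted signals that warn cells of infection. Type I interferons act through the receptor pair IFNAR1 and IFNAR2, and interferon gamma acts through IFNGR1 and IFNGR2. The receptors switch on the kinases JAK1, JAK2 and TYK2, which activate transcription factors that enter the nucleus and turn on a wide set of antiviral genes. The binding sites for these factors are known as the ISRE, which type I interferons use through STAT2 and IRF9, and the GAS, which interferon gamma uses.

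The cells were K562, an established human leukaemia line, carrying a B2M:tdTomato transgene in every group. RNA was sequenced from 3 libraries of untreated cells, 3 of TALE silenced cells and 3 of dCas9 silenced cells, and DNA of the same 3 kinds of cells was profiled by MeDIP-seq, an antibody pull-down of methylated DNA, again with 3 libraries a group. Silenced cells had been given 3 plasmids at once, which code for 3 proteins that the labels abbreviate ATR. This mix held 1 ug of the plasmid for the D3A-based one and equal molar amounts of the others, and dCas9 cells also received 250 ng of an sgRNA plasmid. TALEs are proteins built to bind a chosen DNA sequence, and dCas9 is a Cas9 that binds where its guide RNA directs it without cutting. The third group is labelled untreated, and cells given other plasmids were not analysed here, so exposure to plasmid DNA and the action of the encoded proteins cannot be told apart. The labels number the libraries of a group from 1 to 3 and do not say whether they came from separate cultures, so the p-values measure only the spread between these libraries, which may be technical.

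RNA libraries held between 8460076 and 12050554 counts. The targeted gene followed the labels: B2M, the light chain of MHC class I, had 48 to 79 counts in untreated libraries and 2 to 7 in silenced ones, with log2 fold changes of -3.94 (SE 0.345) for TALE and -4.56 (SE 0.381) for dCas9 (edgeR adjusted p 9.61e-06 and 4.57e-06). The B2M_tomato transcript had 3115 to 4109 counts in untreated libraries and 128 to 205 in silenced ones. All 12 erythroid and megakaryocytic markers listed for K562 passed the count filter, and their summed level ran from 6773 to 10614 CPM over the 9 libraries. CPM were computed on library totals scaled by TMM, which corrects for differences in library composition. Of 25 markers of other blood, stromal, epithelial and endothelial cells in the table, KRT14 was at 0 in every library and most stayed under 1 CPM, while EPCAM, CD3D, LYZ, COL1A1, COL1A2 and NCR1 passed the filter with silenced and untreated libraries overlapping. CLEC4C and LILRA4, markers of the plasmacytoid dendritic cells known for making interferon, summed to at most 0.484 CPM in any library. In bulk RNA, fewer cells with a transcript and less of it per cell cannot be told apart. Untreated replicate 3 stood apart among low-count genes: genes below the count filter took up 0.639% of its counts, against 0.201% to 0.288% in the other 8 libraries.

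The letters of an ISRE were found in the promoters of many stimulated members and of no signalling member. RefSeq promoters on GRCh38.p14, 250 bases before to 50 bases after the start, were matched for 38 of the 49 genes; IFNAR2, IRF2, IRF7, USP18, IFIT2, IFITM2, MX2, OAS2, OASL, TRIM22 and PML were not matched. The letters GAAA and, after any 2 bases, GAAA again, searched on both strands, occurred in 18 of 29 stimulated promoters, in 0 of 9 signalling promoters and in 3.65% of all 27305 promoters of the table. The stimulated members were listed as interferon targets, so a high share describes the list. GAS letters, TTC and after any 3 bases GAA, occurred in 7 of the 38 promoters, 2 of signalling members (IRF1 and IRF9) and 5 of stimulated members, and in 7.88% of all promoters. The 30-base windows below show only members with a match. They come from some of the most abundant stimulated members, from members near or under the detection limit of these cells, from IFIH1 and from IRF1. ADAR, more abundant than EIF2AK2 in untreated cells, held no ISRE letters, and neither did UBE2L6, PSMB8 and PSMB9. The windows read 5′ to 3′ on the strand of the gene. Capitals mark the matched letters, which begin with TTTC where the match is on the other strand.
IFITM1 (chr11:314024-314053, plus strand, abundant): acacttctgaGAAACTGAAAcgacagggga
IFITM3 (chr11:320876-320905, minus strand, abundant): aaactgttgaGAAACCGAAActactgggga
BST2 (chr19:17405741-17405770, minus strand, abundant): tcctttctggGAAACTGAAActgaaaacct
ISG15 (chr1:1013380-1013409, plus strand, abundant): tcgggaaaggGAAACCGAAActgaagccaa
EIF2AK2 (chr2:37156967-37156996, minus strand, abundant): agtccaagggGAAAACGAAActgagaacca
IFIH1 (chr2:162318686-162318715, minus strand, intermediate): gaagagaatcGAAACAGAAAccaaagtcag
IFIT1 (chr10:89392497-89392526, plus strand, below the count filter): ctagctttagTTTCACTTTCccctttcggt
MX1 (chr21:41420559-41420588, plus strand, below the count filter): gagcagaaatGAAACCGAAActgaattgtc
IFI44 (chr1:78649761-78649790, plus strand, below the count filter): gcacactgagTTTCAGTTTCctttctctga
IRF1, a GAS match (chr5:132490878-132490907, minus strand): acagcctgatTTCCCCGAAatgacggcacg

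The ISRE letters were found among members with and without measurable RNA. Among stimulated members with a promoter entry, 12 of 20 that passed the RNA count filter and 6 of 9 below it held the ISRE letters. The same 10 bases with a C directly after them occurred in 10 of the 20 and in 5 of the 9, against 0.798% of all promoters. IFITM3 and MX1 carry the same 10 letters, GAAACCGAAA, at positions -35 to -26 and 12 to 21 from their starts, and ISG15 carries them at -107 to -98. In untreated cells IFITM3 and ISG15 were among the 5 most abundant members per kilobase of exon, while MX1 had 12 counts over 3 libraries. The median CpG content was 8.0 CpG per 100 bases for signalling members, 4.33 for stimulated members that passed the filter and 1.33 for those below it, against 4.67 over all promoters. These medians describe 9, 20 and 9 promoters and were not tested.

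Levels in untreated cells split the list: the signalling chain was present almost whole, while the stimulated genes ranged from IFITM1, above 98.1% of the tested genes with a known length, to single counts. Of 12 signalling members, 11 passed the count filter, and IRF9, the DNA-binding subunit of the type I interferon factor, did not. Of 37 stimulated members, 22 passed. Per kilobase of exon, the median level was 4.21 CPM over all 12 signalling members and 0.317 CPM over all 37 stimulated members, tested or not. The tested genes with a known length had a median of 4.87 CPM, and 5 of 12 and 9 of 37 members lay above it. That set leaves out genes below the count filter, while the member medians include IRF9 and 15 stimulated members below it. The medians therefore describe unlike sets, and the low stimulated median partly reflects the members below the filter. Levels per kilobase use the summed length of all annotated exons, so genes with many long alternative exons read low, and 34 of 49 levels moved by more than 1 SD when the longest transcript was used in its place.

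Per kilobase of exon, the interferon gamma chains read as the more abundant receptors. IFNGR1, the ligand-binding chain, stood at 13.0 ± 1.30 CPM per kilobase (SD, n = 3) and IFNGR2, its partner, at 12.1 ± 0.834, with overlapping libraries. IFNAR1 and IFNAR2, the chains for type I interferons, stood at 4.24 ± 0.428 and 0.988 ± 0.0929. The summed exons of IFNAR1 come to 15.7 kb against 3.55 kb for IFNGR1 and 2.54 kb for IFNGR2, and before division by length IFNAR1 had the higher mean in untreated cells, at 66.5 CPM against 46.0 and 30.6. In CPM, IFNGR1 had 40.7, 48.8 and 48.5 in untreated replicates 1, 2 and 3, 24.8, 35.1 and 40.7 in TALE replicates and 43.3, 28.8 and 34.7 in dCas9 replicates. The untreated libraries were the high ones as a group, but dCas9 replicate 1 lay inside their range and TALE replicate 3 just under the lowest of them. IFNGR2 had 31.2, 28.3 and 32.4 CPM in untreated, 27.4, 30.4 and 30.3 in TALE and 32.9, 32.8 and 28.6 in dCas9 libraries, with all 3 groups overlapping.

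The receptor-bound kinases were all well measured. JAK2, which serves the interferon gamma receptor, stood at 8.74 ± 0.429 CPM per kilobase, JAK1, shared by both receptors, at 6.05 ± 0.397, and TYK2, paired with IFNAR1, at 5.05 ± 0.454 (SD, n = 3 each). JAK2 had 73.0, 67.5 and 66.9 CPM in untreated, 76.1, 70.1 and 68.6 in TALE and 66.3, 66 and 61.8 in dCas9 libraries. The dCas9 libraries of JAK2 all lay below the other groups, by little. JAK1 had 83.1, 73.7 and 82.3 CPM in untreated, 86.0, 82.0 and 69.1 in TALE and 75.9, 76.0 and 77.7 in dCas9 libraries, and its groups overlapped. Of the transcription factors, IRF2, which can repress interferon targets, stood at 4.19 ± 0.339 CPM per kilobase and STAT2, the partner of IRF9, at 2.92 ± 0.0385. IRF7, which drives type I interferon genes, stood at 1.02 ± 0.157, IRF1, an activator induced by interferon gamma, at 0.451 ± 0.0746, and IRF9 at 0.0846 ± 0.0499, from 14 counts over the untreated libraries.

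The stimulated genes of untreated K562 cells were led, per kilobase of exon, by membrane proteins that block virus entry or release. IFITM1, of the family that blocks the fusion of viruses with the cell, was the most abundant member at 158 ± 16.9 CPM per kilobase (SD, n = 3), followed by IFITM2 at 55.5 ± 3.89, BST2 (tetherin, which holds budding viruses at the surface) at 45.0 ± 0.634 and IFITM3 at 33.4 ± 1.69. None of these 4 overlapped its neighbour in the order. ISG15, a ubiquitin-like protein, stood at 23.1 ± 1.87 and its conjugating enzyme UBE2L6 at 7.78 ± 0.805. ADAR, which edits double-stranded RNA, stood at 19.2 ± 0.607 and EIF2AK2, the kinase PKR that halts translation when it binds such RNA, at 11.4 ± 1.03. Over the whole order, 13 of 48 neighbouring pairs had ranges that did not overlap and 35 did. IFITM1 and IFITM2 share exons with an annotated readthrough gene and the 3 IFITM genes are close relatives, so the division of reads among them depends on the authors' counting.

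The stimulated members that followed IFITM1 in level per kilobase of exon overlapped between groups. IFITM2 had 90.6, 82.2 and 94.4 CPM in untreated, 59.8, 88.2 and 89.6 in TALE and 88.5, 85.0 and 89.7 in dCas9 libraries. BST2 had 50.3, 48.9 and 49.2 CPM in untreated, 43.0, 47.8 and 54.9 in TALE and 63.2, 42.3 and 55.8 in dCas9 libraries. IFITM3 had 89.7, 99.2 and 95.8 CPM in untreated, 75.5, 97.7 and 110 in TALE and 96.6, 112 and 105 in dCas9 libraries. All groups of these genes overlapped, and TALE replicate 1 was the lowest TALE library for each of them. ISG15 had 21.5, 18.3 and 20.4 CPM in untreated, 15.6, 17.3 and 25.3 in TALE and 19.4, 19.4 and 14.4 in dCas9 libraries. ADAR had 242, 235 and 227 CPM in untreated, 296, 273 and 219 in TALE and 218, 259 and 242 in dCas9 libraries. EIF2AK2 had 137, 128 and 114 CPM in untreated, 135, 127 and 118 in TALE and 120, 146 and 125 in dCas9 libraries. For these genes too the 3 groups overlapped.

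Lower in the order came sensors, nuclear body proteins and proteasome subunits. PML and SP100, which build nuclear bodies, stood at 6.00 ± 0.249 and 2.81 ± 0.0977 CPM per kilobase in untreated cells (SD, n = 3). TRIM21, a receptor for antibody inside the cell, stood at 4.45 ± 0.206 and IFI35 at 3.22 ± 0.12. MAVS, the mitochondrial adaptor of RNA sensing, stood at 2.53 ± 0.257, and of the 2 sensors that feed it IFIH1 (MDA5) stood at 2.29 ± 0.488 and DDX58 (RIG-I) at 0.163 ± 0.0481. PSMB9, PSMB8 and PSMB10, the interferon-induced catalytic subunits of the immunoproteasome, stood at 2.28 ± 0.551, 1.22 ± 0.0958 and 0.636 ± 0.224. IFI6, a mitochondrial survival factor, stood at 1.60 ± 0.400, IFIT3 at 0.317 ± 0.0763, the oligoadenylate synthetase OAS3 at 0.144 ± 0.0431 and the exonuclease ISG20 at 0.10 ± 0.0671.

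TALE silenced cells were first compared with untreated cells, to ask whether the interferon genes differed beside the target. No member was called: edgeR's quasi-likelihood test with Benjamini-Hochberg adjustment over 13786 genes gave 0 of 33 tested members at an adjusted p under 0.05, against 0.0218% of all tested genes, and DESeq2 also gave 0. At an unadjusted p under 0.05, 5 members were lower and 0 higher, against 4.29% of all tested genes lower and 2.86% higher. They were PSMB8, UBE2L6, IFNGR1, PSMB9 and IFIH1, of which IFNGR1 is a signalling member. In 5 tested members, all lower, the libraries of the groups did not overlap (PSMB8, UBE2L6, IFNGR1, IFIH1 and STAT2), against 6.44% of tested genes lower and 6.09% higher. The count of 5 at an unadjusted p moved with single libraries: 1 member was lower without untreated replicate 3, 2 without TALE replicate 2 and 3 without TALE replicate 1, and 1 was higher without TALE replicate 3. The count without overlap was 12 lower and 1 higher without TALE replicate 3, where 19% of tested genes were lower and 17.5% higher by the same rule. It was 8 lower and 1 higher without untreated replicate 1, against 14.5% and 15.8%, and 8 lower and 0 higher without untreated replicate 2, against 9.68% and 9.24%. The shares over all tested genes rose as well, since fewer libraries have to be apart.

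The median log2 fold change of TALE against untreated cells was -0.06 over 11 signalling and -0.15 over 22 stimulated members, beside 0.00 over all tested genes. Leaving out TALE replicate 1 brought the stimulated median to -0.04, leaving out untreated replicate 3 to -0.08 and leaving out TALE replicate 3 to -0.25. The signalling median was -0.03 with untreated replicate 3 left out. Members with a value below 0 numbered 10 of 11 and 17 of 22, beside 49.4% of tested genes. The largest values below 0 were those of the immunoproteasome subunits PSMB8, at -0.73 (SE 0.273, adjusted p 0.585, edgeR), and PSMB9, at -0.72 (SE 0.281, adjusted p 0.607, edgeR). The largest above 0 were DDX58, at 0.24 (SE 0.348), and ADAR, at 0.16 (SE 0.130), with edgeR adjusted p of 0.913 and 0.824. For 27 of 33 tested members the 95% interval lay within 1 log2 unit of 0 on both sides, against 11433 of 13786 tested genes. The exact permutation test of single members cannot go below 0.1 with 3 libraries against 3, which PSMB8, UBE2L6, IFNGR1, IFIH1 and STAT2 reached.

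In dCas9 silenced cells the members at a low unadjusted p were again all lower, with IFIH1 first. edgeR called 0 of 33 tested members at an adjusted p under 0.05, against 0.029% of all tested genes, while DESeq2 called 1, IFIH1. At an unadjusted p under 0.05, 6 members were lower and 0 higher (IFIH1, PSMB8, PSMB9, IRF7, IFITM1 and IFNGR1), against 2.83% of all tested genes lower and 3.1% higher. The libraries of 5 tested members did not overlap, all lower in dCas9 cells (IFIH1, PSMB8, PSMB9, IRF7 and JAK2), against 5.97% of tested genes lower and 5.6% higher. Without untreated replicate 3 the count of 6 fell to 3, and without dCas9 replicate 3 there was 1 member higher. The count without overlap was 11 lower and 2 higher without dCas9 replicate 1, against 15.4% and 14.1% of tested genes, and 10 lower and 1 higher without untreated replicate 2, against 9.42% and 9.1%. It was 8 lower and 2 higher without dCas9 replicate 3, against 10.9% and 11%, and 7 lower and 2 higher without untreated replicate 3, against 8.68% and 8.73%. Members higher in dCas9 cells thus appeared by this rule when a library was left out. The comparisons of TALE and dCas9 cells with untreated cells share their 3 untreated libraries, so members that are low in both are not independent of each other.

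The medians of dCas9 against untreated cells were -0.11 over signalling and -0.01 over stimulated members on the log2 scale, beside 0.00 over all tested genes. The signalling median was -0.2 without dCas9 replicate 3, and the stimulated median ran from -0.09 without untreated replicate 2 to 0.00 without untreated replicate 1. Values below 0 numbered 9 of 11 and 12 of 22, beside 50.8% of tested genes. PSMB8 had the largest value below 0, at -1.09 (SE 0.285, adjusted p 0.299, edgeR), followed by IRF7. The largest above 0 were ISG20, at 0.58 (SE 0.50), and IFIT3, an RNA-binding antiviral protein, at 0.45 (SE 0.432), with edgeR adjusted p of 0.966 and 0.973. Both leaned on single libraries: IFIT3 was at 0.07 without dCas9 replicate 2 and 0.85 without dCas9 replicate 3, and ISG20 at 0.21 with untreated replicate 2 left out and at 1.08 with untreated replicate 3 left out. For 25 of 33 members the 95% interval lay within 1 log2 unit of 0, against 11458 of 13786 tested genes.

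**Figure D1:**
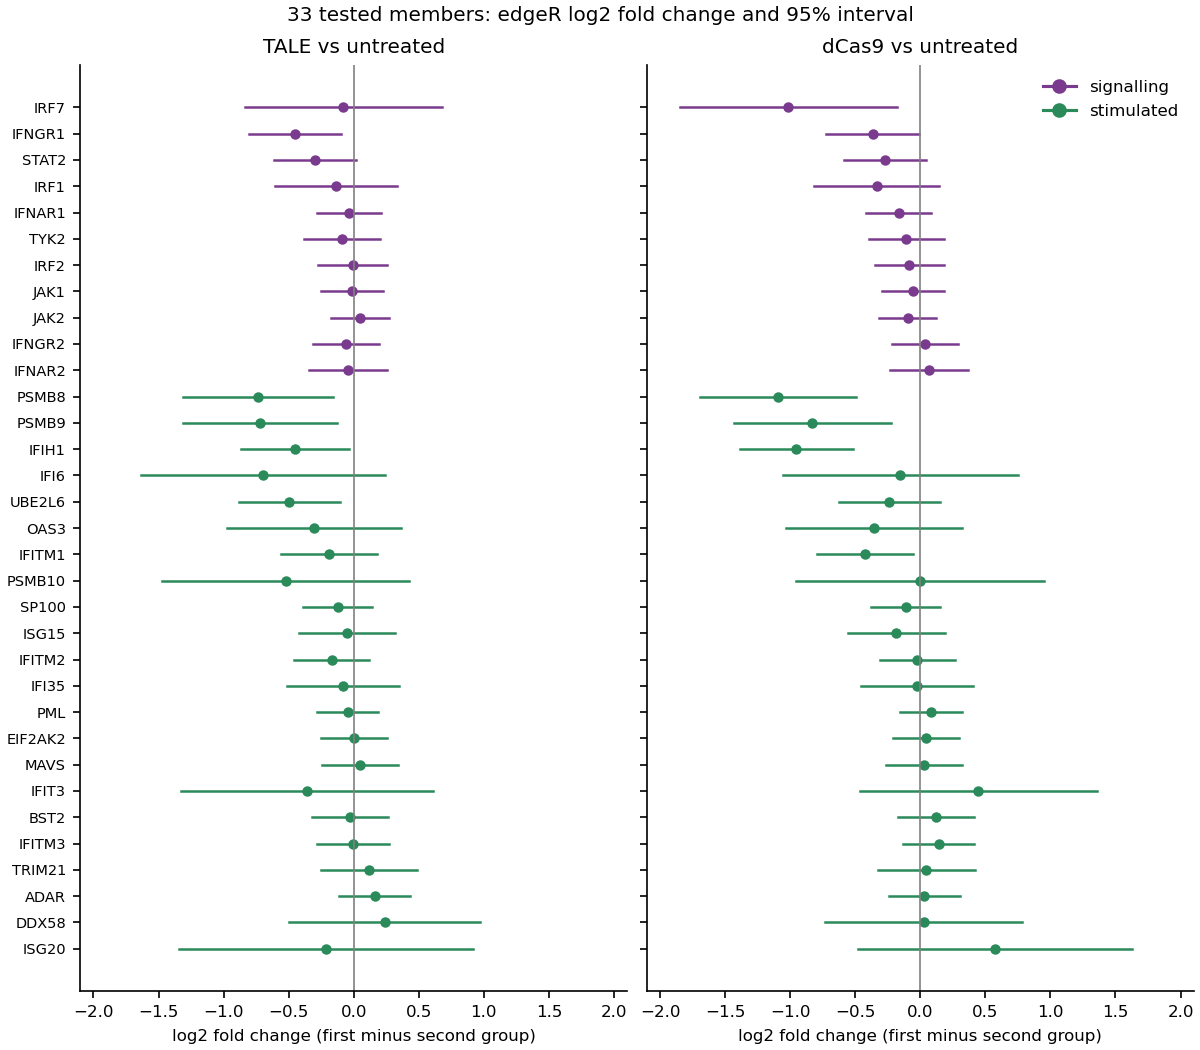
edgeR log2 fold change (point) with its 95% interval (line) of the 33 tested members for TALE against untreated (left) and dCas9 against untreated (right), signalling members in purple and stimulated members in green. PSMB8, PSMB9 and IFIH1 lie to the left of 0 in both panels, and the widest intervals belong to low-count members such as ISG20 and IFIT3.

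IFIH1 is the cytoplasmic sensor MDA5, which binds long double-stranded RNA, and lies on the minus strand at chr2:163123584-163175194 (GRCh37). It had 10.6, 10.4 and 14.9 CPM in untreated, 9.51, 7.71 and 8.98 in TALE and 6.02, 4.87 and 7.54 in dCas9 libraries. The 3 groups did not overlap, with untreated libraries highest and dCas9 libraries lowest. Against untreated cells, dCas9 cells gave a log2 fold change of -0.95 (SE 0.205), with p 0.000218 and adjusted p 0.200 in edgeR. That adjusted p ran from 0.00367 to 0.885 over 16 alternative settings and fell under 0.05 with DESeq2, at 0.0355, and without the filter on low counts, at 0.00367. For TALE against untreated cells the value was -0.45 (SE 0.197, adjusted p 0.658, edgeR), and TALE cells were 0.50 above dCas9 cells (SE 0.207, adjusted p 0.745, edgeR).

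PSMB8 and PSMB9 code for catalytic subunits of the immunoproteasome, which cuts proteins into peptides for MHC class I, and sit side by side in the MHC region of chromosome 6, PSMB8 at chr6:32808494-32812456 on the minus strand and PSMB9 at chr6:32811913-32827628 on the plus strand (GRCh37). PSMB8 had 4.45, 4.45 and 3.87 CPM in untreated, 2.94, 1.85 and 2.96 in TALE and 2.32, 1.66 and 1.98 in dCas9 libraries. All 6 silenced libraries lay below all 3 untreated ones. PSMB9 had 6.20, 6.92 and 9.68 CPM in untreated, 4.70, 2.70 and 6.48 in TALE and 5.00, 3.31 and 4.36 in dCas9 libraries. TALE replicate 3 of PSMB9 overlapped the untreated libraries, and the dCas9 libraries did not. The log2 fold change of PSMB9 for dCas9 was -0.83 (SE 0.286, adjusted p 0.595, edgeR). Exons of these 2 genes overlap on opposite strands, and the sources used here do not say whether counting used the strand, so reads of the overlap cannot be told apart and the genes are not separate observations. PSMB10, on chromosome 16, had log2 fold changes of -0.52 (SE 0.452) in TALE and 0.00 (SE 0.454) in dCas9 cells against untreated ones, from 5 to 12 counts a library.

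IFNGR1, at chr6:137518620-137540586 on the minus strand (GRCh37), was the signalling member with the lowest p against untreated cells in TALE libraries. With the CPM given above, its log2 fold change was -0.45 (SE 0.169, adjusted p 0.585, edgeR) in TALE and -0.37 (SE 0.170, adjusted p 0.831, edgeR) in dCas9 cells. UBE2L6, the enzyme that charges ISG15 onto proteins, had 14.5, 15.8 and 17.8 CPM in untreated, 9.21, 10.6 and 14.3 in TALE and 16.1, 10.9 and 13.6 in dCas9 libraries. The highest TALE library lay just under the lowest untreated one, and dCas9 libraries spread across both. Its log2 fold change was -0.49 (SE 0.185, adjusted p 0.585, edgeR) in TALE and -0.24 (SE 0.183) in dCas9 cells. ISG15 itself was at -0.05 (SE 0.176) and -0.18 (SE 0.178).

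IRF7, which turns on type I interferon genes after infection, was low in one silenced group. It had 2.27, 3.09 and 2.66 CPM in untreated, 1.37, 2.85 and 3.24 in TALE and 1.76, 1.45 and 0.694 in dCas9 libraries, from 7 to 37 counts. The dCas9 libraries all lay below the untreated ones, and the TALE libraries spanned both. The log2 fold change was -1.01 (SE 0.397, adjusted p 0.726, edgeR) for dCas9 and -0.08 (SE 0.359) for TALE cells against untreated ones, and TALE against dCas9 gave 0.93 (SE 0.389, adjusted p 0.745, edgeR). STAT2 had 27.6, 27.2 and 26.9 CPM in untreated, 19.1, 25.7 and 21.5 in TALE and 22.1, 18.5 and 27.1 in dCas9 libraries. Its untreated libraries were nearly equal, and only dCas9 replicate 3 of the silenced libraries fell among them. IFITM1 had 246, 248 and 295 CPM in untreated, 180, 256 and 257 in TALE and 256, 154 and 179 in dCas9 libraries. One TALE library and a pair of dCas9 libraries lay below the untreated range, and its log2 fold change for dCas9 cells was -0.42 (SE 0.175, adjusted p 0.744, edgeR).

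The silenced groups were compared with each other, to ask whether the members differed with the DNA-binding protein used. edgeR called 0 of 33 members, against 0.0% of all tested genes, and DESeq2 also called 0. At an unadjusted p under 0.05, 2 members were higher in TALE cells, IFIH1 and IRF7, and 0 lower, against 2.6% of tested genes higher and 3.79% lower. Libraries did not overlap in 5 members: IFIH1 and JAK2 were higher and ISG20, PSMB10 and IFNAR2 lower in TALE cells, against 4.88% of tested genes higher and 4.5% lower. The largest values below 0 were those of IFIT3, at -0.81 (SE 0.435), and ISG20, at -0.79 (SE 0.493), with edgeR adjusted p of 0.814 and 0.824. Without dCas9 replicate 2 IFIT3 was at -0.42, and without dCas9 replicate 3 at -1.21. The 2 higher members became 1 without TALE replicate 2, dCas9 replicate 2 or dCas9 replicate 3 and 0 without TALE replicate 3. Without TALE replicate 3 the members whose libraries did not overlap numbered 5 higher and 5 lower, against 13.7% and 13.7% of tested genes. The medians were 0.05 for signalling and -0.03 for stimulated members, beside 0.00 for all tested genes. Without single libraries they ran from 0.02 to 0.11 and from -0.11 to 0.01. Of the 33 intervals 28 lay within 1 log2 unit of 0, against 11572 of 13786 for all tested genes.

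With both silenced groups combined against untreated cells, edgeR called 0 of 33 members, against 0.0363% of all tested genes, and DESeq2 called 0. At an unadjusted p under 0.05, 6 members were lower and 0 higher (IFIH1, PSMB8, PSMB9, IFNGR1, UBE2L6 and STAT2), against 3.66% of tested genes lower and 2.69% higher. The count of 6 fell to 3 without untreated replicate 2 and to 3 without untreated replicate 3. IFIH1 was at -0.70 (SE 0.171, adjusted p 0.220), PSMB8 at -0.91 (SE 0.237, adjusted p 0.269) and PSMB9 at -0.77 (SE 0.241, adjusted p 0.453) in edgeR. IFNGR1 was at -0.41 (SE 0.145), UBE2L6 at -0.37 (SE 0.158) and STAT2 at -0.28 (SE 0.129). The 6 silenced and 3 untreated libraries did not overlap in IFIH1 and PSMB8, against 2.01% of tested genes lower and 1.53% higher, and for both the exact two-sided permutation p was 0.0238, the smallest that 6 against 3 libraries can give. The number without overlap was 5 without untreated replicate 1 and 4 without dCas9 replicate 1, all lower, against 6.01% and 2.62% of tested genes lower. The largest values above 0 were ISG20 at 0.18 (SE 0.457) and DDX58 at 0.13 (SE 0.309), and both turned negative without untreated replicate 2, at -0.18 and -0.0759. Of the 33 intervals 26 lay within 1 log2 unit of 0, against 12053 of 13786 for all tested genes. The medians were -0.10 for signalling and -0.07 for stimulated members beside 0.00 for all tested genes. With untreated replicate 1 left out the signalling median was -0.03. The stimulated one ran from -0.01, with TALE replicate 1 left out, to -0.15, with untreated replicate 2 left out.

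By role, the members tested against untreated cells are described in small classes, and differences between the classes were not tested. All 3 immunoproteasome subunits and all 4 tested transcription factors had a log2 fold change below 0 in both silenced groups. So had both tested members of the ISG15 system, and none of these passed the adjusted threshold. Of all tested genes 49.4% (TALE) and 50.8% (dCas9) lay below 0 in each comparison alone. The share below 0 in both was not computed, and the comparisons share their untreated libraries. Among the classes just named, the value closest to 0 was that of PSMB10 in dCas9 cells, given above. In dCas9 cells IFITM3 lay above 0, at 0.14 (SE 0.131), as did BST2, TRIM21 and ISG20, while IFITM1 and IFITM2 lay below 0 in both groups. The receptors IFNAR1, IFNAR2 and IFNGR2 lay between -0.17 and 0.06, and the kinases between -0.11 and 0.05. Both genes of the double-stranded RNA response lay above 0, EIF2AK2 at 0.00 and 0.05 and ADAR at 0.16 and 0.03 for TALE and dCas9. MAVS stood at 0.05 (SE 0.139) and 0.03 (SE 0.140) and DDX58 at 0.24 (SE 0.348) and 0.03 (SE 0.360), while IFIH1, of the same RNA sensing group, stood at the values given above. The nuclear body genes PML and SP100 lay between -0.12 and 0.08. IFI6 was at -0.70 (SE 0.446) for TALE and -0.15 (SE 0.429) for dCas9 cells, and OAS3 at -0.30 (SE 0.317) and -0.36 (SE 0.323), neither with an edgeR p under 0.05.

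Below the count filter lay the members most often used as markers of an interferon response. They were IRF9 and 15 stimulated genes: the antiviral GTPases MX1 and MX2, the oligoadenylate synthetases OAS1, OAS2 and OASL, the RNA-binding IFIT1, IFIT2 and IFIT5, IFI27, IFI44, IFI44L, the radical-SAM enzyme RSAD2 (viperin), the ISG15 protease USP18, TRIM22 and XAF1. Each had 4 to 50 counts in total over the 9 libraries. Per kilobase of exon, IFI27 stood at 0.151, IFIT1 at 0.147, USP18 at 0.129 and IFIT5 at 0.0558 CPM in untreated cells. Between 0.0513 and 0.0351 CPM per kilobase came MX2, RSAD2, IFI44, IFIT2, XAF1 and TRIM22, and between 0.0303 and 0.0144 came IFI44L, MX1, OASL, OAS1 and OAS2. These levels rest on single counts and have no order that their spread supports. IFIT1, which binds viral RNA that lacks host cap marks, had 8, 5 and 6 counts in untreated, 0, 1 and 1 in TALE and 0, 0 and 1 in dCas9 libraries. All untreated libraries exceeded all silenced ones. Relative to total counts, the pooled TALE value was 9.11% of the untreated one (exact 95% interval 1.03% to 37.8%) and the dCas9 value 4.74% (0.114% to 29.8%), intervals that cover counting error only. Without untreated replicate 3 the same shares were 9.29% and 4.83%. Fitted without the filter, edgeR gave IFIT1 an adjusted p of 0.594 for TALE, 0.531 for dCas9 and 0.127 for both silenced groups together.

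Other low members differed less evenly or leaned on untreated replicate 3. OAS1 had 2, 1 and 3 counts in untreated, 0, 0 and 1 in TALE and 0 in all dCas9 libraries. TRIM22 had 4, 2 and 6 counts in untreated, 1, 0 and 0 in TALE and 4, 3 and 1 in dCas9 libraries. MX2 had 2, 3 and 14 counts in untreated, 3, 2 and 2 in TALE and 4, 4 and 6 in dCas9 libraries, so that untreated replicate 3 held 14 of the 19 untreated counts. Pooled MX2 counts of TALE and dCas9 cells were 31.9% (exact 95% interval 11.3% to 79.2%) and 66.3% (30.8% to 140%) of the untreated value, and without that library 84.5% (23.1% to 338%) and 176% (59.9% to 624%). The dCas9 value of MX2 thus turned from below to above the untreated one. MX1 likewise had 7 of its 12 untreated counts in that library. Its shares were 21.6% (3.92% to 80.2%) for TALE and 22.5% (4.08% to 83.4%) for dCas9 with it, and 36.2% (5.63% to 186%) and 37.7% (5.85% to 194%) without it. IFI44L had 8 of 9 and OAS2 4 of 4 untreated counts there, so without it the IFI44L shares turned from 28.9% and 20.0% to 181% (14.6% to 9510%) and 126% (6.54% to 7411%), and OAS2 had no untreated count left. Untreated replicate 3 held 83 counts of the 16 low members, or 9.71 CPM of the unscaled total. The other 8 libraries held 1.95 to 3.90 CPM. Without untreated replicate 3 the TALE share of USP18 moved from 34.62% to 40.26%, and its upper 95% bound from 94.44% to 126.6%. The TALE share of TRIM22 moved from 7.213% to 10.06%, with upper bounds of 48.75% and 82.95%. For OAS1 in dCas9 cells, with 0 counts, the upper bound moved from 76.47% to 152%. The TALE shares of IFIT5 and XAF1 turned from 72.13% and 57.71% to 151% and 120.8%. The part of untreated replicate 3 in the overlap and edgeR results of these low members was not tested. IFI27 had 6, 6 and 5 counts in the untreated libraries and pooled counts of 17, 13 and 20 in untreated, TALE and dCas9 cells, and RSAD2 had pooled counts of 8, 12 and 12. Libraries of TALE and untreated cells did not overlap in 5 low members, all lower (USP18, IFIT1, OAS1, IFI27 and TRIM22), against 6.88% lower and 1.23% higher among untested genes with at least 4 counts. For dCas9 there were 2 lower, IFIT1 and OAS1, against 4.95% lower and 2.0% higher, and both silenced groups combined gave the same 2 genes, against 2.6% lower and 0.221% higher. TALE libraries lay below dCas9 libraries in MX2, IFI27 and TRIM22, against 4.85% lower and 1.72% higher. Fitted with edgeR without the filter, low members lower at an unadjusted p under 0.05 were IFIT1, MX2 and TRIM22 for TALE, IFIT1 for dCas9, none for TALE against dCas9, and IFIT1, MX1, OAS1 and TRIM22 for both silenced groups combined. Those of MX2 and MX1 include untreated replicate 3, whose part in their counts is given above. The shares of untested genes with at least 4 counts that were lower by the same rule were 6.38%, 4.02%, 1.89% and 12.3%.

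**Figure D2:**
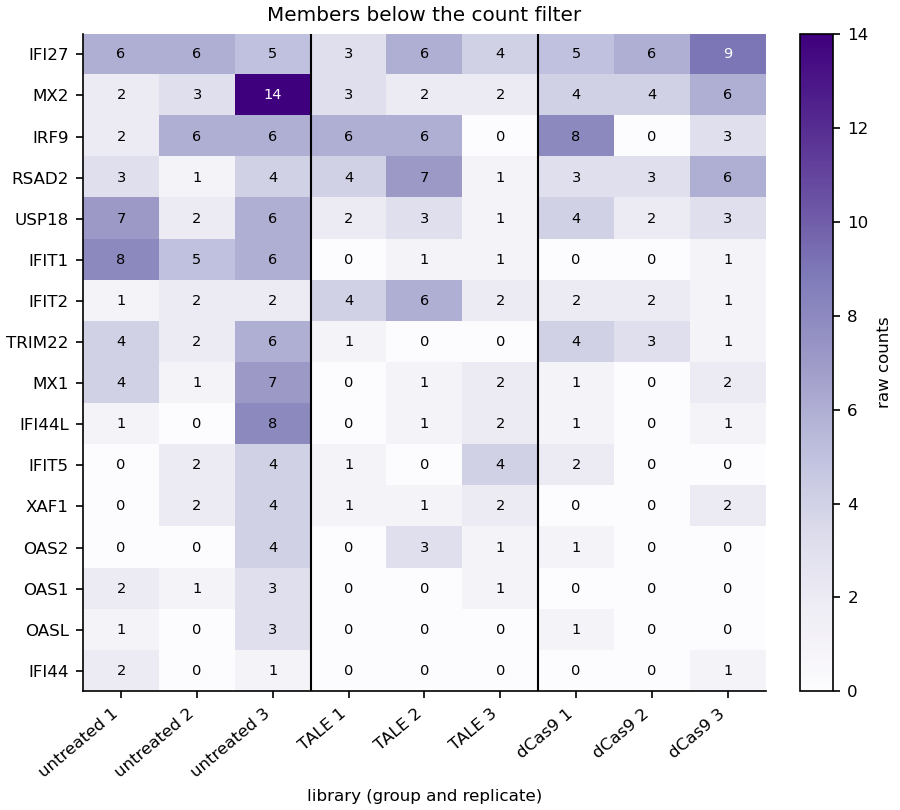
Raw counts of the 16 members below the count filter (rows) in each RNA library (columns, grouped as untreated, TALE and dCas9); darker cells hold more counts. Untreated replicate 3 is the darkest column for MX2, IFI44L and MX1, while IFIT1 is at 5 to 8 in each untreated library and at 0 or 1 in the others.

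Transcripts of the interferons themselves were at or near 0 counts. The table lists 18 interferon genes, of which 5 had 0 counts in every library; the highest total of any was 4 counts, and all 18 summed to 22 counts over 9 libraries. Of these, 16 lay in untreated replicate 3, among them all 4 counts of IFNA8, and 4 in untreated replicate 1. TALE libraries held 0 and dCas9 libraries 2, so without untreated replicate 3 the sum was 6. Outside the 49 members, 55 further genes of the pathway passed the filter, and GBP5, a guanylate-binding protein strongly induced by interferon gamma, fell in both silenced groups. Its counts were 150, 160 and 173 in untreated, 47, 81 and 96 in TALE and 77, 65 and 71 in dCas9 libraries, with no overlap. The log2 fold change was -1.43 (SE 0.221, adjusted p 0.0214, edgeR) for TALE and -1.35 (SE 0.222, adjusted p 0.0352, edgeR) for dCas9, and both calls were lost without untreated replicate 2, untreated replicate 3 or TALE replicate 2. The TALE call was also lost without TALE replicate 1, and the dCas9 call without any one dCas9 library. No other gene of the 55 was called in any of the 4 contrasts by edgeR.

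At an unadjusted p under 0.05, the 55 further genes held 5 lower and 2 higher in TALE cells, against 4.29% and 2.86% of all tested genes, and 7 lower and 1 higher in dCas9 cells, against 2.83% and 3.1%. The same count was 0 lower and 2 higher in TALE against dCas9 cells, beside 3.79% and 2.6%, and 8 lower and 3 higher with both silenced groups combined, beside 3.66% and 2.69%. Their medians on the log2 scale were 0.00, -0.05, 0.04 and -0.02. After GBP5, the lowest p for TALE belonged to its neighbour in family GBP4, at -0.96 (SE 0.216), the helicase-like DDX60L, at -0.75 (SE 0.190), and SAMHD1, which depletes nucleotides for viruses, at 0.38 (SE 0.140). For dCas9 they belonged to DDX60L at -0.82 (SE 0.193), GBP4 at -0.78 (SE 0.215) and SAMD9 at -0.52 (SE 0.145). For TALE against dCas9 they were SAMD9, at 0.52 (SE 0.144), LAP3, at 0.31 (SE 0.117), IKBKE, at -0.60 (SE 0.341), and PARP14, at 0.22 (SE 0.137). With both silenced groups together GBP5, DDX60L, GBP4 and C19orf66 came first, at -1.39, -0.78, -0.87 and -0.60, and GBP5 was again the one called, which leaving out untreated replicate 3 undid. Inhibitors of the pathway and further receptor and signal genes held none at an adjusted p under 0.05: of 7 tested inhibitors 0 had an unadjusted p under 0.05 in any contrast. Of the 9 receptor and signal genes, IL10RB, a receptor chain that type III interferons share with other cytokines, had one in edgeR for dCas9, at -0.39 (SE 0.171, p 0.0340, adjusted p 0.791), and for both silenced groups, at -0.34 (SE 0.146, p 0.0335, adjusted p 0.724).

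DNA methylation at the starts of the members was then examined. The members were listed by gene name, but with earlier results of these data known, so this readout may not be independent of their choice. Of 49 members, 19 (38.8%) had a region of the deposited MeDIP table within 2 kb of the start, against 42.5% of protein-coding genes. No such region covered a start itself. Of 24 regions at these 19 members, 13 had enough counts to be tested, and edgeR called 0 of 13 in each of the 4 contrasts, against 0.0% of all 105652 tested regions in the TALE and the combined comparison and 0.000947% in the dCas9 comparison and in that of the silenced groups. Regions with an unadjusted p under 0.05 numbered 1, 2, 3 and 1 of 13, against 4.74%, 4.69%, 4.47% and 4.88% of all tested regions. The median log2 fold changes were -0.09, -0.12, 0.03 and -0.17, and 8, 11, 5 and 12 of 13 regions were below 0, beside 50.1%, 49.9%, 50.2% and 51.0% of all tested regions. None of the 13 tested regions lacked overlap between silenced and untreated cells. Among all tested regions 10.2% did for TALE, 10.3% for dCas9 and 2.45% for both. Between TALE and dCas9 cells 2 of the 13, at IFNGR2 and USP18, did not overlap, against 9.97%. Some untested regions with few counts also lacked overlap. The share of all untested regions that did so was not computed, so these are listed as description only. Untested regions at MAVS and PSMB8 were lower in TALE than in untreated cells, and that at PML was lower in dCas9 cells. Between the silenced groups, untested regions at MAVS and IRF1 were lower and a region at DDX58 was higher in TALE cells.

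The region at ISG15, chr1:942457-947595 in hg19, overlaps an exon of a longer annotated ISG15 transcript, ends upstream of the canonical start and was the longest, at 5139 bp. It held 314, 266 and 333 counts in untreated, 210, 221 and 310 in TALE and 219, 332 and 228 in dCas9 MeDIP libraries, or 104 ± 8.24, 89.6 ± 6.43 and 90.4 ± 6.97 CPM (SD, n = 3). Its log2 fold change for both silenced groups was -0.21 (SE 0.0924, adjusted p 1.0, edgeR). At PSMB9 a region at chr6:32819907-32820825 lies in an intron of PSMB9 and over an exon of TAP1 on the annotation. It held 29, 31 and 38 counts in untreated, 23, 29 and 27 in TALE and 25, 33 and 4 in dCas9 libraries, and the low dCas9 mean came from replicate 3. Its log2 fold change for dCas9 was -0.68 (SE 0.332, adjusted p 1.0, edgeR). At ADAR a region over an exon, chr1:154578501-154578814, was at -0.67 (SE 0.331) for dCas9 and at 0.73 (SE 0.331) for TALE against dCas9, and regions at IFNGR2 and IFIT5 were at 0.62 (SE 0.283) and 1.13 (SE 0.511) for the latter contrast. IFIH1 and IFNGR1 had no region within 2 kb, and the one at PSMB8 had 1 to 6 counts a library and was not tested.

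The authors' peak lists, one for each MeDIP sample, were read as present or absent. A peak lay within 2 kb of the start in at least 1 of 9 samples for 27 members, in all 9 for IFNGR2, ISG15, USP18, ADAR and PSMB10, and in none for 22. Among the members at a low RNA p, IFIH1, IFNGR1, IRF7, STAT2 and IFITM1 had no peak in any sample. PSMB9 had one in 8 of 9 samples, the exception being dCas9 replicate 3, and PSMB8 and UBE2L6 had one in 1 sample each. Among low-count members, MX1, OAS1, OAS2, OASL, IFI44, IFI44L, RSAD2, IFIT2 and XAF1 had none in any sample, while USP18 had one in 9, IFIT5 in 8 and IRF9 in 7 samples. The share of all genes, or of all genes below the RNA filter, with such a peak was not computed. These peak counts are therefore description only. Of members below the RNA filter, 5 of 16 (31.25%) had a table region within 2 kb, against 26.9% of protein-coding genes below it. Of members that passed it 14 of 33 (42.4%) did, against 54.4% of protein-coding genes that passed.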

How the data were processed

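RNA and MeDIP libraries were made from the same 3 groups of K562 cells, 3 libraries each, 18 samples in all. RNA libraries used the Ovation Human FFPE kit, per the labels' protocols. Reads were aligned with STAR 2.3.0 (RNA) and BWA 0.7.5 (MeDIP) to hg19, with Picard, MACS2 and bedtools among the tools, per the submitters' processing notes; the counter, its annotation and any use of strand are not given in the sources used here. The authors deposited a table of raw counts per gene and one of raw counts per MeDIP region. Their deposited peak lists give each peak a score, a fold enrichment and its −log10 p and q, of which only positions and the −log10 q were used. MeDIP libraries were pooled after adapter ligation and immunoprecipitated together, per the labels' protocols, and held 2529729 to 4492751 counts in the region table.

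The RNA counts were fitted with edgeR 4.0.16 in R 4.3.3: TMM scaling, filterByExpr with a minimum count of 10, one model of group means over 9 libraries, the quasi-likelihood test, and Benjamini-Hochberg adjustment over 13786 genes, with a call at an adjusted p under 0.05. MeDIP counts were fitted in the same way over 105652 of 198884 regions. The contrasts were 4: each silenced group against untreated cells, TALE against dCas9, and the mean of both against untreated cells. For single members an exact two-sided permutation test was run on log2(CPM + 0.5). Exon lengths and positions came from GENCODE v44lift37 on GRCh37, matching 33190 gene names by symbol and 1860 by an older symbol; promoters came from RefSeq on GRCh38.p14. The fitting was tested on simulated data. Tables were handled with Python 3.11.15, pandas 2.3.3 and SciPy 1.17.1.

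The members and the other lists were chosen with earlier results of these data known. Values in every library are given for the 4 signalling and 8 stimulated members most abundant per kilobase of exon. They are also given for each member with an unadjusted p under 0.05 in any contrast. Fold changes are given for the latter and for the 2 largest in each direction per contrast. Other members and the low-count genes were named for their role. Of the further pathway genes, those called or with the lowest p were named. Alternatives were DESeq2 1.42.0 and its size factors, no count filter, the groups of a contrast alone, a replicate block, leaving out mitochondrial and structural noncoding genes, a prior count of 2, other windows, and leaving out each library. Added after seeing the data were the alternative settings of the counts at an unadjusted p, the counts without overlap with each library left out, and the pooled counts of low members and of interferon genes without untreated replicate 3. In their deviations from group means, same-numbered RNA libraries of TALE and dCas9 cells correlated at -0.284, -0.156 and -0.195. Same-numbered RNA libraries of silenced and untreated cells correlated at -0.0555 to 0.103, and same-numbered MeDIP libraries at -0.00475 to 0.00399. The numbers were not taken to pair libraries, and whether they mark a batch was not settled.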

Additional observations from a re-analysis of the deposited data

How the results depend on the processing

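Of 423 alternative values for 27 results on single members, 418 kept their direction and side of the threshold. The exceptions were IFIH1, called by DESeq2 for dCas9 and, when low genes were not filtered, for dCas9 and both silenced groups combined (adjusted p 0.0332), and the reversals of DDX58 and ISG20 for both silenced groups without untreated replicate 2. Leaving out single libraries gave DDX58 -0.0759 to 0.29 and ISG20 -0.18 to 0.69 on the log2 scale. The number of members called was therefore 1 with DESeq2 for dCas9, and 1 without the filter for dCas9 and for both groups; it was 0 otherwise.

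Over all genes, edgeR called 3 (TALE), 4 (dCas9), 0 (TALE against dCas9) and 5 (both silenced groups). DESeq2 called 9, 27, 0 and 36, and no filter gave 74, 89, 77 and 79. With only the contrast's groups dCas9 gave 8. The replicate block gave 3, 2, 0 and 4 genes, 0 members, and 1, 0, 0 and 1 further pathway genes (GBP5 was not called for dCas9), while correlations of same-numbered RNA libraries ran from -0.284 to 0.103. Leaving out single libraries gave 2 to 16, 2 to 10, 0 to 21 and 2 to 33. Further pathway genes called were 2, 2 and 3 without the filter for TALE, dCas9 and both groups and 3 with DESeq2 for both groups; leaving out single libraries gave 0 to 1, 0 to 1 and 0 to 2. Including members below the filter, 10 members for TALE and 4 for both groups did not overlap, all lower. For TALE against dCas9 there were 8, of which IFIH1 and JAK2 were higher. For dCas9 there were 5 tested and 2 low members, all lower. The shares over tested and over low genes are given above. Low genes at large were lower more often, with 6.88% lower and 1.23% higher for TALE and 4.85% and 1.72% for TALE against dCas9. MeDIP regions were found at 9 members within 1 kb, 35 within 5 kb and 31 with any annotated start. Without the filter, the stimulated medians were -0.39 for TALE, -0.17 for dCas9 and -0.28 for both groups, and without untreated replicate 2 that of dCas9 was -0.09. The cause was not tested. Depth limits the 16 members below the filter, where 1 to 3 counts decide a value.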

Other observations

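In the MeDIP table a region in an intron of MX2, chr21:42734403-42734701 in hg19, had 0 counts in replicates 1 and 2 of every group and 5, 7 and 10 counts in replicate 3 of untreated, TALE and dCas9 cells. It was below the count filter and was not tested. At IFIT5 a region at chr10:91172306-91172586, over an exon of LIPA, held 12, 13 and 14 counts in untreated, 3, 16 and 28 in TALE and 3, 9 and 9 in dCas9 libraries, so that the spread within the TALE group exceeded the difference between groups.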
